A study of Homo sapiens with 6 samples.

Results

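The 10 genes studied here build or carry the sugar chains of the stem cell surface, and they were followed as embryonic stem cells were turned into neural stem cells. They were the fucosyltransferases FUT1, FUT2, FUT4 and FUT8, the galactosyltransferases B3GALT5 and C1GALT1, the sialyltransferase ST6GAL1, the hyaluronan synthases HAS2 and HAS3, and podocalyxin (PODXL), a membrane protein that carries such chains. Members were listed by gene symbol, with earlier results of these data known. Every probe with one of these symbols was taken, which gave 21 probes of 10 genes among 48803 probes and 18665 gene symbols in the table. Each of 6 Illumina Human-6 arrays measured the mRNA of 1 culture. The cultures were the embryonic stem cell stage (ESC) and the neural stem cell stage (NSC) of H1, HSF1 and HSF6, 3 established human embryonic stem cell lines, with 1 culture for each line and stage. The H1 cultures came from a laboratory at Rutgers that used no feeder cells and both HSF lines from UCLA, so line and site cannot be told apart. NSC were obtained on an adherent layer, first in a neural induction medium with B27 and N2 supplements and then in a precursor medium with bFGF, as described for the H1 site. H1 carried extra copies of parts of chromosomes 12 and 17, on which no member lies. No line or stage was cultured again for these arrays, so the spread in the main stage tests below is that between single cultures of different lines. A fit with the line as block, used as an alternative, removes the mean level of each line.

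The surface of human pluripotent cells is known by its glycans. The SSEA3 and SSEA4 antigens are globo series glycolipids, the TRA epitopes are borne on podocalyxin, and SSEA1, which is Lewis X with its fucose, is absent from human ESC and appears on neural progenitors. Such chains are made stepwise in the Golgi by transferases that each add a single sugar, so the amount of an epitope depends on several enzymes, on the supply of activated sugars and on the carrier protein. Hyaluronan differs from these in being a free polysaccharide that is extruded by synthases in the plasma membrane.

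The labelled stages were checked first. Of 6 pluripotency markers, 5 fell from ESC to NSC and none rose, and the signal of POU5F1 was 11920, 10448 and 9876 in ESC of H1, HSF1 and HSF6 and 132, 132 and 137 in NSC. NANOG was not tested because its signal in HSF1 ESC was at background. Of 6 neural stem cell markers, 3 rose, and SOX1 was not above background on any array. In NSC, FABP7 gave 243 (H1), 1387 (HSF1) and 1186 (HSF6), SLC1A3 gave 577, 3055 and 3299, and SOX9 gave 2907, 2330 and 1608. NES was not called, and it went from 1213 to 886 in H1 but rose in both HSF lines. PAX6 gave 138 (H1), 591 (HSF1) and 413 (HSF6) in NSC, so the H1 value was not above background. All 6 mesenchymal markers rose, and their summed signal went from 1101 to 2590 in ESC to 114720 in H1 NSC, 30030 in HSF1 NSC and 41827 in HSF6 NSC. All 3 epithelial markers fell, from a sum of 9039 to 14822 in ESC to 455 to 470.2 in NSC. Of 5 neuronal markers, 4 rose, and of 4 endothelial and 3 endodermal markers 1 and 3 fell. The neuronal marker TUBB3 was not called, and it went from 1935 to 986 in H1 but rose in both HSF lines. Markers of several cell types were thus above background in NSC, and their part in the member results was not tested. Fewer cells of a type and less RNA per cell cannot be told apart in such cultures.

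The deposited values are linear signals that had already been brought to a common distribution, and their background peaked at 127 with an SD of 11.2. The detection limit was set at a signal of 145, and a probe over it counted as above background. Background was removed with the normexp model, 16 was added and log2 was taken, and a log2 difference here is always NSC minus ESC. A probe was tested where it was above background on all 3 arrays of at least 1 stage. It was called where limma gave an adjusted p (Benjamini-Hochberg over 17384 tested probes) under 0.05 and the stages differed by at least 1.5-fold. Of the 21 member probes, 9 were tested, and these represent 6 genes, ST6GAL1, C1GALT1, HAS2, HAS3, PODXL and FUT4. Of the other 12 probes, 8 were not above background on any array, and FUT1, FUT2, FUT8 and B3GALT5 had no tested probe.

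Of the 9 tested probes, 6 of 4 genes (PODXL, HAS3, C1GALT1 and ST6GAL1) fell from ESC to NSC, in 3 of 3 lines and with no overlap between the stages. These traits were read from the same arrays as the calls, which favour them, and are no separate support. How many of all tested probes show them is not given here. Among all tested probes 11.9% were called higher in ESC and 10.3% higher in NSC. Called higher in NSC by limma were 0 member probes, with 0 at an unadjusted p under 0.05. Of the 6, ST6GAL1 ILMN_2384496 and PODXL ILMN_1711311 (2 probes) passed the detection limit on all arrays in ESC alone. With no detection limit, the median log2 difference was -0.21 over all 21 member probes and -0.01 over all 48803 probes. The 4 genes act at separate steps, as carrier, hyaluronan synthase, O-glycan elongation and terminal sialylation. Without both HSF1 arrays only HAS3 was called (1 of 6 probes), and over all probes the calls then dropped to 158 higher in ESC and 178 higher in NSC.

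**Figure D1:**
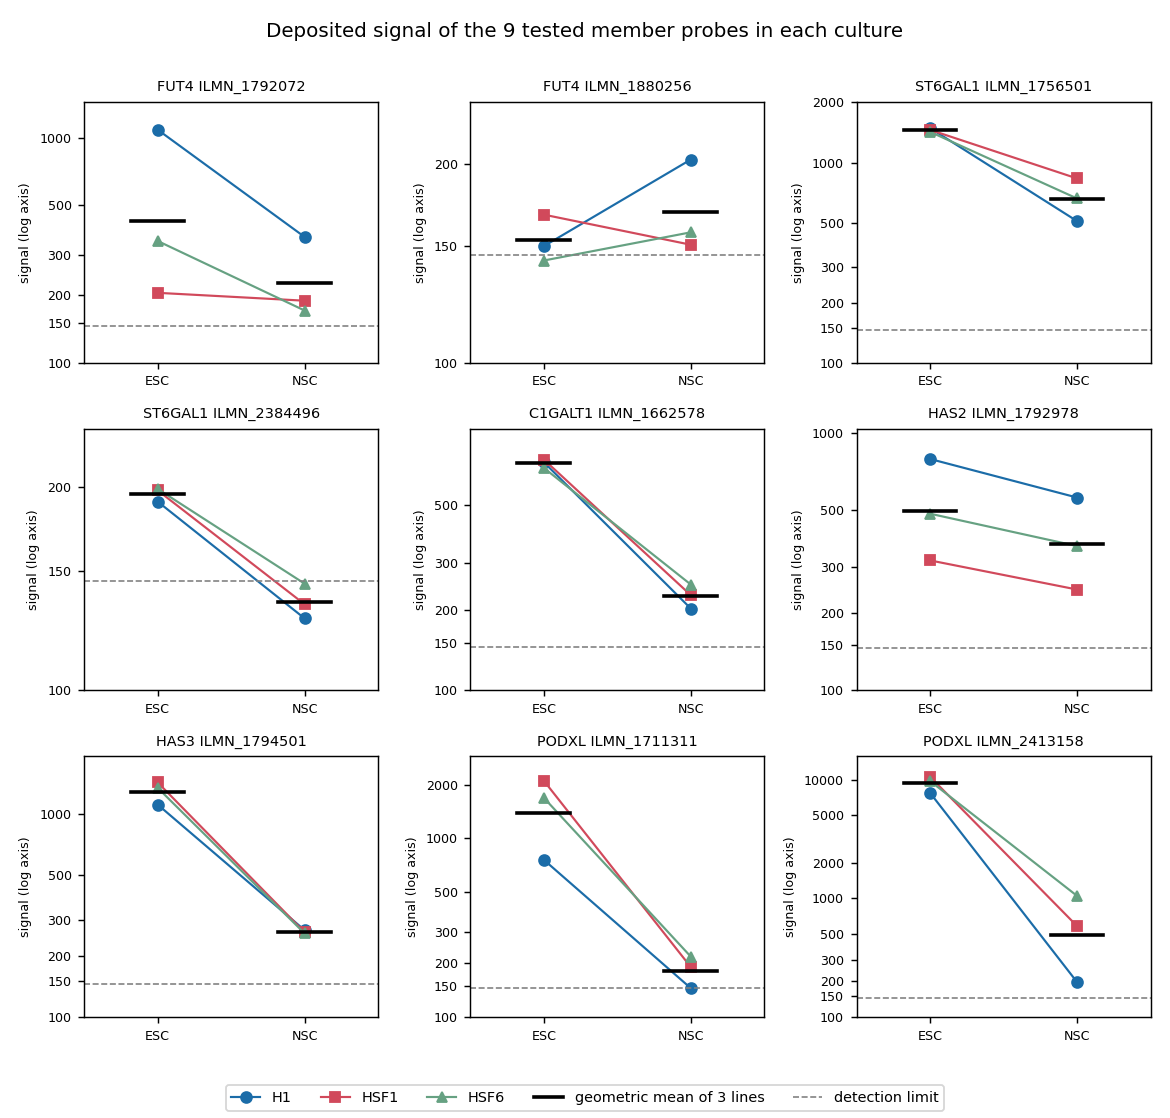
Deposited signal (log axis) of the 9 tested member probes in ESC and NSC, with a marker and line for each cell line, a black bar for the geometric mean of 3 lines and a dashed line at the detection limit of 145. The 3 NSC values lie below the 3 ESC values for HAS3, C1GALT1 and both tested probes of PODXL and ST6GAL1, and the stages overlap for FUT4 and HAS2.

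Sequence upstream of the genes is shown for ST6GAL1, C1GALT1 and HAS3, the genes called that have an entry in the RefSeq promoter table used here (GRCh38.p14), to show what lies before their starts. The table held 12 entries for 8 of the 10 members, and PODXL and HAS2 had none. Each run is the 250 bases before the annotated start, 5′ to 3′ on the strand of the gene (plus strand for all 3), and matches to a GC box (GGGCGG), to the POU octamer (ATTTGCAT) and to an E box (CACGTG) on either strand are in capitals. The motifs were picked after these sequences were seen, do not overlap each other, and a match is a description of letters only.
ST6GAL1, chr3:186930276-186930525: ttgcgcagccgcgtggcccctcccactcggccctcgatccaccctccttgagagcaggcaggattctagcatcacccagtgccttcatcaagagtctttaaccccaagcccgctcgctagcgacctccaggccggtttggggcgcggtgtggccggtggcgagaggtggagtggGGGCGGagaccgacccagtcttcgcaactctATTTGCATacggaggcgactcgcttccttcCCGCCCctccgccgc
C1GALT1, chr7:7182294-7182543: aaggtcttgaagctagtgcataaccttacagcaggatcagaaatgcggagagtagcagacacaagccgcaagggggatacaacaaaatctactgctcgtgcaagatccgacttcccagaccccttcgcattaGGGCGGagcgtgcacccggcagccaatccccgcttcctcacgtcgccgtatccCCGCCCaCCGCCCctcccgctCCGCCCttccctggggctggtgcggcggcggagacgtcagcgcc
HAS3, chr16:69107290-69107539: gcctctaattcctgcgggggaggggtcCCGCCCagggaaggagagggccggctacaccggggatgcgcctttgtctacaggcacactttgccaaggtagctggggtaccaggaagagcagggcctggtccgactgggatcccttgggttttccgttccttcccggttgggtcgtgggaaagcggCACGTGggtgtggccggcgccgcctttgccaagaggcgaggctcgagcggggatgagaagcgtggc
The GC box was found 2 times before ST6GAL1, 4 times before C1GALT1 and 1 time before HAS3. It was in 7 of the 12 member entries and in 42.6% of 35116 promoters of this length. The octamer, the sequence bound by POU factors such as the product of POU5F1, was in 1 of the 12, at 45 bases before the start of ST6GAL1, and in 1.63% of all promoters. That start was not matched to the transcript records of the 3 ST6GAL1 probes. The E box was in 1 of the 12, that of HAS3, and in 6.34% of all promoters.

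Podocalyxin, a sialomucin of the CD34 family that keeps membranes apart by its negative charge, had the largest fall among the members. Probe ILMN_2413158 gave a signal of 7742 (H1), 10580 (HSF1) and 9739 (HSF6) in ESC. In NSC it gave 197 (H1), 584 (HSF1) and 1049 (HSF6), all above background. NSC of H1 was the lowest and NSC of HSF6 the highest, and every ESC culture was above every NSC culture. On the background corrected log2 scale the level was 13.16 ± 0.24 in ESC and 8.39 ± 1.78 in NSC (SD, n = 3), a log2 difference of -4.77 (SE 0.79, 95% interval -6.62 to -2.92) and a fold of 27.3 (adjusted p = 0.00865). By line, and on the same background corrected scale, ESC exceeded NSC 89.2-fold in H1, 22.2-fold in HSF1 and 10.3-fold in HSF6. The log2 difference was -3.78 without H1 NSC and -5.51 without HSF6 NSC, and with both HSF1 arrays left out the adjusted p was 0.0919.

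The second PODXL probe, ILMN_1711311, gave 758 (H1), 2099 (HSF1) and 1685 (HSF6) in ESC and 145 (H1), 190.1 (HSF1) and 217 (HSF6) in NSC, where the H1 value was just under the limit. H1 had the lowest signal of the 3 lines in each stage. The log2 difference was -4.25 (SE 0.55, 95% interval -5.54 to -2.97), a fold of 19.1 (adjusted p = 0.00407), or 19.0 with the H1 value raised to the limit. It was -4.21 for H1, -4.66 for HSF1 and -3.89 for HSF6, and the adjusted p was 0.0659 without both HSF1 arrays. Without background correction the log2 difference over the lines was -2.94, so the size of the fold depended on that correction. The third probe, ILMN_2297511, lay between 112 and 122 on all 6 arrays, never above background, although it is annotated to the same transcript record as ILMN_2413158. The stage differences of the 2 tested probes differed by 0.52 (ILMN_1711311 minus ILMN_2413158, SE 0.50, 95% interval -0.63 to 1.66, adjusted p = 0.620 over 3630 pairs of tested probes of the same gene). Of those pairs, 6.97% differed, and 0 of the 3 member pairs did, with 0 at an unadjusted p under 0.05 in limma.

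The stage difference was also compared between H1 and the HSF lines, and among the member probes the largest gap in size was that of podocalyxin. For ILMN_2413158 the fall in H1 exceeded that of the HSF lines by 2.56 on the log2 scale (H1 minus HSF -2.56, 95% interval -4.19 to -0.94, adjusted p = 0.169). For ILMN_1711311 the same difference was 0.06 (95% interval -1.17 to 1.29, adjusted p = 0.968), so the fitted values of the 2 probes did not order the lines alike. The H1 NSC signal of ILMN_1711311 was under the limit, so the place of H1 in its order is uncertain. Of the 9 member probes 0 passed this interaction in limma and 1, ILMN_2413158, had an unadjusted p under 0.05, while 0.259% of all tested probes passed. With 1 array of H1 per stage, the test takes its spread from HSF1 and HSF6.

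HAS3, a hyaluronan synthase of the plasma membrane, had the smallest adjusted p among the members. Probe ILMN_1794501 gave 1107 (H1), 1423 (HSF1) and 1338 (HSF6) in ESC and 267 (H1), 260.4 (HSF1) and 257 (HSF6) in NSC. The NSC cultures were close to each other and far below every ESC culture. The log2 level was 10.19 ± 0.21 in ESC and 7.23 ± 0.05 in NSC (SD, n = 3), and the log2 difference was -2.96 (SE 0.23, 95% interval -3.51 to -2.41), a fold of 7.80 (adjusted p = 6.8e-04). It was -2.68 for H1, -3.14 for HSF1 and -3.07 for HSF6, and the probe was called under each of 15 alternatives. Without background correction the log2 difference over the lines was -2.29. ILMN_1668760, annotated to the same transcript record, gave 146, 137 and 144 in ESC and 129, 144 and 131 in NSC of H1, HSF1 and HSF6, with 1 array above background. ILMN_1684341, from another transcript record, was never above background.

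HAS2, the synthase that makes most of the hyaluronan of the early embryo in mice, was not called. Probe ILMN_1792978 gave 792 (H1), 319 (HSF1) and 485 (HSF6) in ESC and 561 (H1), 246 (HSF1) and 363 (HSF6) in NSC. The lines kept the order H1, HSF6, HSF1 from high to low in each stage, and the stages overlapped. The log2 difference within a line was -0.60 for H1, -0.63 for HSF1 and -0.57 for HSF6, while the SD between lines was 0.86 in ESC and 0.87 in NSC. Over the 3 lines it was -0.60 (SE 0.56, 95% interval -1.91 to 0.71), with adjusted p = 0.462 and 0.116 with the line as block. The other 3 HAS2 probes, annotated to the same transcript record, were near or under the limit. ILMN_1700935 was above it on 2 ESC arrays and 1 NSC array with 167 in H1 ESC at most, ILMN_2243036 on 1 of each, and ILMN_1777562 on none. The values of HAS2 and HAS3 thus rest on a single probe each.

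C1GALT1, which adds galactose to the first sugar of mucin type O-glycans and so builds the T antigen, fell in every line. Its probe ILMN_1662578 gave 722 (H1), 739 (HSF1) and 687 (HSF6) in ESC and 203 (H1), 228 (HSF1) and 249.6 (HSF6) in NSC. The ESC cultures differed little among themselves, and all NSC cultures were above background. The log2 level was 9.24 ± 0.06 in ESC and 6.83 ± 0.30 in NSC (SD, n = 3), and the log2 difference was -2.41 (SE 0.25, 95% interval -3.00 to -1.82), a fold of 5.32 (adjusted p = 0.00211). By line the fold was 6.70 (H1), 5.41 (HSF1) and 4.17 (HSF6), and the adjusted p was 0.0527 without both HSF1 arrays. Without background correction the log2 difference over the lines was -1.66. C1GALT1C1, the chaperone that C1GALT1 needs to fold, gave 381, 215 and 323 in ESC and 330.4, 195 and 223 in NSC of H1, HSF1 and HSF6 (log2 difference -0.51, SE 0.48, adjusted p = 0.465).

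ST6GAL1 caps galactose of N-glycans with sialic acid, in the linkage read by elderberry lectin. Probe ILMN_1756501 gave 1486 (H1), 1456 (HSF1) and 1423 (HSF6) in ESC and 510.0 (H1), 833 (HSF1) and 661 (HSF6) in NSC. ESC of the 3 lines was nearly equal, and NSC was lowest in H1 and highest in HSF1. The log2 level was 10.39 ± 0.03 in ESC and 9.08 ± 0.43 in NSC (SD, n = 3), and the log2 difference was -1.31 (SE 0.28, 95% interval -1.97 to -0.65), a fold of 2.48 (adjusted p = 0.0189). This call was lost under 7 of 15 alternatives, the most among the 6 called probes. Leaving out 1 array gave an adjusted p of 0.0501 (H1 ESC), 0.0578 (HSF1 ESC), 0.0527 (HSF6 ESC) and 0.0666 (HSF6 NSC). Leaving out a line gave 0.0931 (HSF1) and 0.157 (HSF6).

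A second ST6GAL1 probe, ILMN_2384496, gave 190.4 (H1), 198 (HSF1) and 199 (HSF6) in ESC and 128 (H1), 134 (HSF1) and 144 (HSF6) in NSC, where no array was above background. Set against the limit in place of the NSC values, ESC was at least 1.35-fold higher on the deposited signals, and the fold depended on the background correction (fitted log2 difference -1.55, SE 0.24, adjusted p = 0.00697). Without background correction the log2 difference was -0.54, under 1.5-fold, and the adjusted p was 0.0936 with HSF1 left out and 0.0789 with HSF6 left out. The third, ILMN_1653120, was never above background. The 3 probes are annotated to 3 different transcript records. Between the 2 tested probes the stage difference differed by 0.24 (ILMN_1756501 minus ILMN_2384496, SE 0.30, 95% interval -0.44 to 0.92, adjusted p = 0.709).

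FUT4, which fucosylates lactosamine chains to make Lewis X and so the SSEA1 antigen, was not called on either of its probes. Probe ILMN_1792072 gave 1084 (H1), 205 (HSF1) and 347 (HSF6) in ESC and 362 (H1), 189 (HSF1) and 171 (HSF6) in NSC. H1 was highest in each stage, and HSF1 ESC lay close to the NSC values, so the stages overlapped. The log2 level was 8.12 ± 1.70 in ESC and 6.71 ± 1.11 in NSC (SD, n = 3), and the log2 difference was -1.41 (SE 0.89, 95% interval -3.48 to 0.67), with adjusted p = 0.282 and 0.0629 with the line as block. ESC exceeded NSC 3.88-fold in H1 and 3.99-fold in HSF6 but 1.21-fold in HSF1. The second probe, ILMN_1880256, is annotated to an expressed sequence tag and gave 150.1 (H1), 168 (HSF1) and 143 (HSF6) in ESC and 203 (H1), 151 (HSF1) and 158 (HSF6) in NSC. Its log2 difference was 0.40 (SE 0.38, 95% interval -0.49 to 1.30) with adjusted p = 0.470, and the sign differed between lines (1.22 for H1, -0.49 for HSF1 and 0.48 for HSF6). The stage differences of the FUT4 probes differed by -1.81 (ILMN_1792072 minus ILMN_1880256, SE 0.82, 95% interval -3.67 to 0.06, adjusted p = 0.250), a value that passed the threshold only without HSF1 ESC (-2.81, adjusted p = 0.0420).

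The remaining members were at background. FUT1, which makes the H antigen on red cells and other tissues, gave 142, 141 and 128 in ESC and 116, 110.3 and 117 in NSC of H1, HSF1 and HSF6. All 6 values were under the limit, although the stages did not overlap. With every probe of the table tested, its log2 difference was -0.47 (SE 0.13, 95% interval -0.80 to -0.14, adjusted p = 0.126). FUT2, which makes the H antigen of secretions, gave 132, 108 and 120.4 in ESC and 120.3, 96.9 and 98.4 in NSC. Its log2 difference was -0.18 (SE 0.14, 95% interval -0.53 to 0.16, adjusted p = 0.622). FUT8, which adds the core fucose of N-glycans, gave 129.5, 109.7 and 120.4 and 145, 127 and 117, all under the limit. Its log2 difference was 0.21 (SE 0.20, 95% interval -0.28 to 0.71, adjusted p = 0.699).

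B3GALT5 builds lacto chains and, in the globo series, the SSEA3 structure. Its probe ILMN_1800713 gave 139.5, 142 and 146 in ESC and 126, 144 and 141 in NSC of H1, HSF1 and HSF6, with HSF6 ESC alone above background. ILMN_2378654, from another transcript record, stayed between 113 and 135 and was never above it. None of the 12 probes left out of the test was called by limma when all 48803 probes were tested, and 1, that of FUT1, had an unadjusted p under 0.05. In that fit 5.31% of all probes were called either way. A signal at background gives no level, so expression of these genes below what the probe can show was not detectable here.

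**Figure D2:**
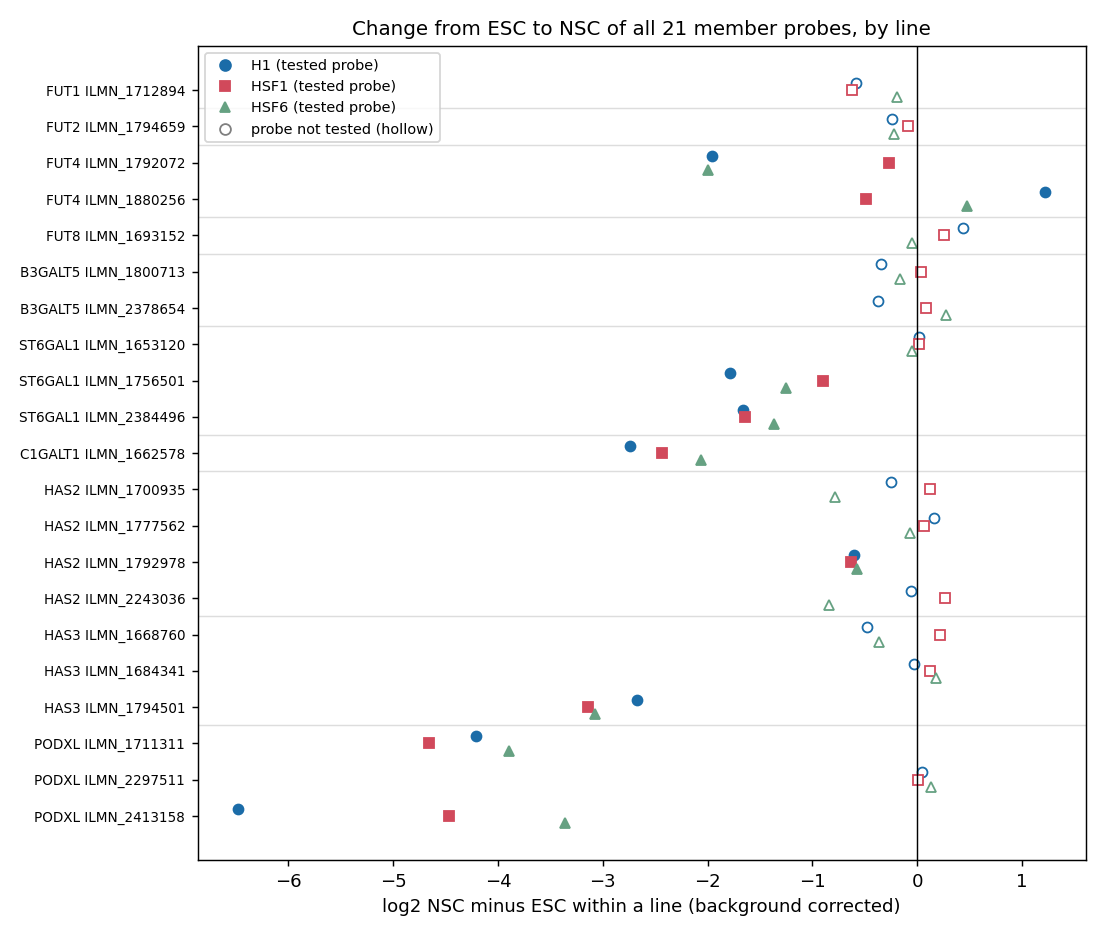
Log2 difference NSC minus ESC within each line for all 21 member probes, grouped by gene, with filled markers for tested probes and hollow markers for probes not tested. The 6 called probes of PODXL, HAS3, C1GALT1 and ST6GAL1 lie left of 0 in every line, and the lines lie on both sides of 0 for FUT4 ILMN_1880256.

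Related enzymes, carriers and binding proteins were read from 8 lists with 113 genes, of which 108 had a probe and 82 were tested. Of these 82 genes, each represented by the brightest of its tested probes, 10 were higher in ESC, 11 were higher in NSC and 61 were not called. Over all 11002 genes tested, 12.4% were higher in ESC and 11.4% higher in NSC, against 10 and 11 of 82 in the lists. All 21 changed in the same direction in 3 of 3 lines, which a call over these same lines makes likely. Under 15 alternatives GALNT16 alone kept its call throughout, while GALNT6 lost it under 13, B3GNT5 under 11 and MAN2A1 under 9. B3GALT6, ST8SIA4 and MGAT3 lost it under 10 each, and MAN2A2, FUCA2, CD44 and NHERF1 under 7 each. The remaining called genes of the lists lost theirs under fewer. The counts higher in ESC and NSC became 6 and 5 when HSF1 ESC was left out, 8 and 6 for HSF1 NSC, 5 and 4 for HSF6 NSC, 10 and 17 for H1 NSC, 2 and 1 for both HSF1 arrays, and 1 and 1 for both HSF6 arrays. The median log2 difference over the 82 genes was 0.21, and that over all genes was -0.06.

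Among 5 tested genes of the other fucosyltransferases and fucosidases, only FUCA2, a fucosidase, fell (log2 difference -1.26, SE 0.29, adjusted p = 0.0241). Of 9 genes that supply GDP-fucose and CMP-sialic acid, NANS, the sialic acid synthase, fell (log2 difference -1.58, SE 0.29, adjusted p = 0.0115) and SLC35A1, the Golgi carrier of CMP-sialic acid, rose (log2 difference 1.43, SE 0.23, adjusted p = 0.00776). SLC35A1 gave 643, 586 and 581 in ESC and 1359, 1363 and 1587 in NSC of H1, HSF1 and HSF6. GFUS, which makes GDP-fucose, was not called (log2 difference -0.89, SE 0.30, adjusted p = 0.0732).

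Of 11 tested genes in the list of lacto chain and globo series enzymes, 2 fell and 2 rose. B3GNT2, which extends lactosamine chains, fell (log2 difference -2.34, SE 0.35, adjusted p = 0.00629), with signals of 613, 568 and 647 in ESC and 275, 188 and 187 in NSC. B4GALT4, a galactosyltransferase, fell as well (log2 difference -1.41, SE 0.27, adjusted p = 0.0139), as did its further tested probe. B3GALT6, which was in the list but acts in the linker of proteoglycans, rose (log2 difference 1.81, SE 0.48, adjusted p = 0.0350). B3GNT5, which starts lacto series glycolipids, rose too (log2 difference 1.67, SE 0.43, adjusted p = 0.0319, and 0.0543 with the line as block). B3GALT5, which builds SSEA3, had no tested probe. Several tested enzymes on the path to the SSEA3 and SSEA4 epitopes were not called. They are UGCG, which makes glucosylceramide (log2 difference -1.17, SE 0.36, adjusted p = 0.0551), A4GALT, which starts the globo series (log2 difference -0.81, SE 1.14, adjusted p = 0.627), B3GALNT1, which adds its next sugar (log2 difference -1.16, SE 0.83, adjusted p = 0.340), and ST3GAL2, which caps SSEA3 with sialic acid (log2 difference -0.42, SE 0.36, adjusted p = 0.422).

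Of 14 other sialyltransferases, 0 fell and 2 rose, and the median log2 difference was 0.60. ST3GAL5, which makes the first ganglioside GM3, rose (log2 difference 1.57, SE 0.26, adjusted p = 0.00824). ST8SIA4, which adds polysialic acid to NCAM, rose (log2 difference 2.73, SE 0.65, adjusted p = 0.0261), with 162, 135 and 147 in ESC and 198, 416 and 692 in NSC of H1, HSF1 and HSF6. It was 2.11 without HSF6 NSC (adjusted p = 0.0690) and 3.49 without H1 NSC. Its 2 further tested probes had log2 differences of 2.85 (adjusted p = 0.0317, called) and 0.53 (adjusted p = 0.259). ST8SIA1, the GD3 synthase, was at 151, 129 and 129.6 in ESC and 153, 435 and 403 in NSC and was not called (log2 difference 2.41, SE 0.76, adjusted p = 0.0577). The summed signal of the 5 neuronal markers was 3952 in H1 NSC, 16016 in HSF1 NSC and 18907 in HSF6 NSC, and their part in these differences was not tested.

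Of 15 genes for mucin type O-glycans, the pathway of C1GALT1, 2 fell and 2 rose. GALNT16, which places the first sugar on serine or threonine, gave 217 (H1), 202 (HSF1) and 228 (HSF6) in ESC and 2252 (H1), 2001 (HSF1) and 1736 (HSF6) in NSC (log2 difference 4.18, SE 0.25, adjusted p = 2.8e-04), and was called under all 15 alternatives. GALNT10, of the same family, rose (log2 difference 1.75, SE 0.32, adjusted p = 0.0120), and GALNT6, also of that family, fell (log2 difference -0.94, SE 0.26, adjusted p = 0.0408, and 0.0585 with the line as block). GALNT6 gave 178, 180 and 164 in ESC and 130, 147 and 145 in NSC of H1, HSF1 and HSF6, with 1 NSC array above background. It passed the detection limit on all arrays in ESC alone, and without background correction its log2 difference was -0.30, under 1.5-fold. GCNT2, which makes the branched I antigen, gave 1307, 1461 and 788 in ESC and 132, 317 and 241 in NSC (log2 difference -3.52, SE 0.72, adjusted p = 0.0162), while its further tested probe was not called (-1.25, adjusted p = 0.0590). The H1 NSC value of GCNT2 was under the limit, so it passed the detection limit on all arrays in ESC alone. Without H1 NSC the log2 difference of GCNT2 was -2.65, and without HSF1 NSC -4.12. Its adjusted p was 0.0628 without HSF1 ESC and 0.0568 without H1 ESC. In N-glycan branching, 1 of 12 genes fell and 2 rose. MAN2A1, a Golgi mannosidase, fell (log2 difference -1.29, SE 0.36, adjusted p = 0.0408), MAN2A2, its close relative, rose (log2 difference 1.42, SE 0.29, adjusted p = 0.0160), and MGAT3, which adds the bisecting sugar, rose (log2 difference 1.73, SE 0.48, adjusted p = 0.0400, and 0.0707 with the line as block).

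Around the hyaluronan synthases, 1 of 11 genes fell and 1 rose. UGP2, which makes the UDP-glucose from which a hyaluronan precursor is formed, gave 9739, 10250 and 4843 in ESC and 2178, 1914 and 1929 in NSC of H1, HSF1 and HSF6 (log2 difference -2.03, SE 0.34, adjusted p = 0.00910). Of its 3 further tested probes, 2 were called in the same direction. HMMR, a hyaluronan binding protein of dividing cells, was not called (log2 difference -1.43, SE 0.51, adjusted p = 0.0850), but passed with the line as block (adjusted p = 0.0261), which makes 2 of 11. CD44, the main hyaluronan receptor, gave 661, 319.5 and 1055 in ESC and 2437, 3220 and 9371 in NSC (log2 difference 3.09, SE 0.68, adjusted p = 0.0203), and its 2 further tested probes, neither of them called, had log2 differences of 0.47 (adjusted p = 0.371) and 2.18 (adjusted p = 0.0619). Its call was lost without HSF1 ESC (2.50, adjusted p = 0.0599), without H1 ESC (3.20, adjusted p = 0.0576) and without HSF6 NSC (2.50, adjusted p = 0.0584). CD44 is also abundant in mesenchymal cells, whose 6 markers all rose, and the part of these in its rise was not tested.

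Of 5 tested genes of the podocalyxin family and its membrane partners, 2 fell and 1 rose. EZR, ezrin, which ties podocalyxin to actin, gave 6973, 3987 and 5135 in ESC and 1402, 1793 and 1904 in NSC (log2 difference -1.70, SE 0.30, adjusted p = 0.0101). NHERF1, the scaffold between them, fell too (log2 difference -1.56, SE 0.34, adjusted p = 0.0198). MUC1, another large mucin of epithelia, was not above background in ESC. The geometric mean of its deposited signals in NSC was 1.36-fold the limit, and limma called it higher in NSC (adjusted p = 0.0145). The epithelial markers CDH1, EPCAM and CLDN6 fell together with PODXL, EZR and NHERF1, and their part in those falls was not tested.

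**Figure D3:**
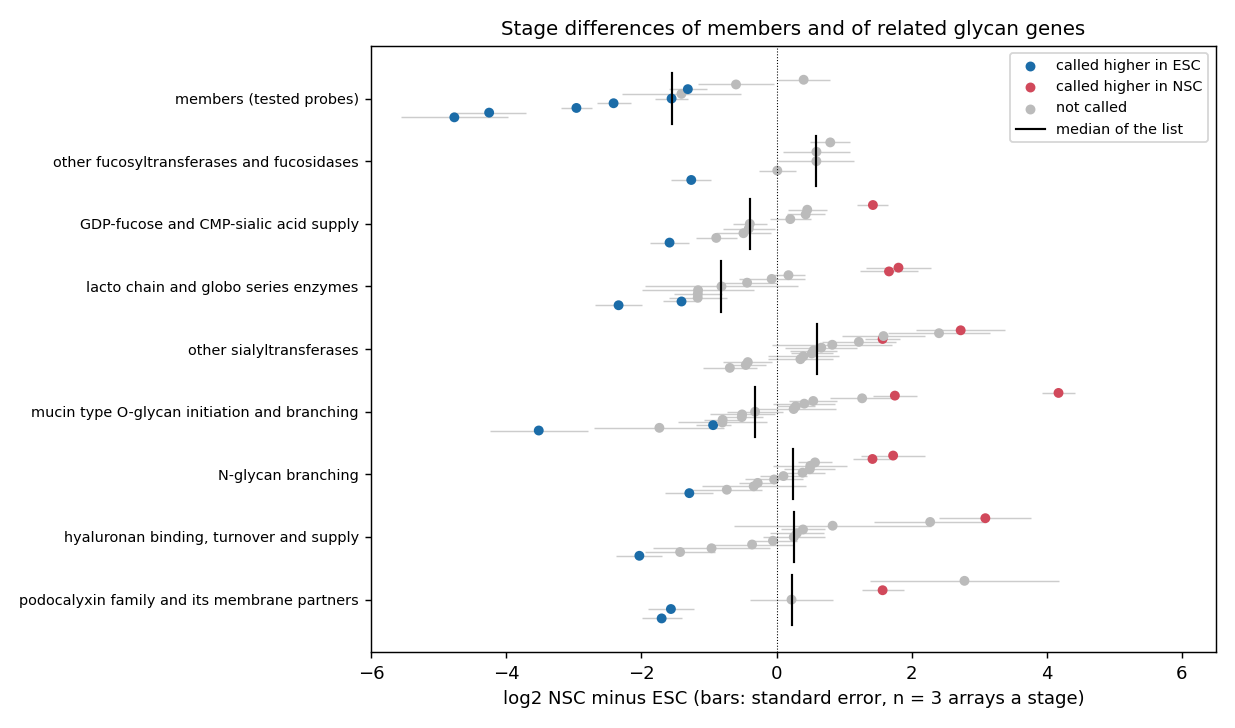
Log2 difference NSC minus ESC, with standard error bars (n = 3 arrays a stage), of the 9 tested member probes and of 82 related genes in 8 lists, coloured by call, with a black bar at each list's median. The 6 called member probes lie left of 0, and the medians of the 8 lists lie between -0.81 and 0.60.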

How the data were processed

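RNA of 6 cultures, extracted with Trizol, was hybridized to Illumina Human-6 beadchips. Probe intensity values were deposited on a linear scale, made in BeadStudio per the submitters' processing notes. How they were normalized is not given in the sources used here. Sorted by size, the arrays were within 0.407 of each other, as after quantile normalization. The lowest signal was 82.3, from which it was inferred, not known, that no background had been subtracted. A table of unnormalized values with 24 per-array columns could not be paired with samples and was not used. The planned background and detection estimates from it were replaced by the mode of the deposited signals under 300.0 (mean 127, SD 11.2) and normexp with an offset of 16. The limit of 145 is the upper 5% point of that background, and this choice was made after the values were seen.

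Probes were named from the platform annotation, which gave a single symbol to 27578, several to 13 and none to 21212. Stages were compared with lmFit and eBayes in limma 3.58.1 (R 4.3.3, with the data.table package 1.17.8), 3 arrays against 3 and without covariates, over all 17384 tested probes, and the scripts were tested on simulated data. Pairs of probes were compared on their difference within an array, over 3630 pairs. Both arrays of a line come from the same line, and their deviations from the stage means correlated at 0.17 (H1), 0.22 (HSF1) and 0.10 (HSF6), so the line pairs them; a fit with the line as block was an alternative. Other alternatives were no background correction, an offset of 50, no or a stricter limit (3 SD above background, 160.5), a t-test, and leaving out arrays or lines. Named genes are all members and, of each list, up to 4 called genes with the largest difference; others named were chosen after their values were seen. Members, lists and markers were chosen with earlier results of these data known. Arrays give no count depth, and precision is limited by how far a probe lies over background and by there being 3 arrays a stage.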

Additional observations from a re-analysis of the deposited data

How the results depend on the processing

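All 6 member calls held with an offset of 50, with no detection limit, with the stricter limit and with the line as replicate block (6 probes higher in ESC, 0 in NSC). There were 5 without background correction and 4 (and 0 in NSC) with the methods' t-test, which lost ST6GAL1 ILMN_1756501 (adjusted p = 0.0567) and PODXL ILMN_2413158 (adjusted p = 0.0687). Leaving out arrays gave 1 to 6, the 1 without both HSF1 arrays, and 0 to 0 higher in NSC. Over all probes, 2063 and 1798 calls higher in ESC and NSC became 896 and 609 with a t-test, 1466 and 1125 with no detection limit, and 158 to 2198 and 178 to 2392 when arrays were left out. Of the related genes, 10 and 11 were called; a t-test gave 4 and 3, no background correction 9 and 6, no detection limit 8 and 6, and leaving out arrays 1 to 12 and 1 to 17. With the line as replicate block the pairing gave 10 and 9, ending the calls of B3GNT5, GALNT6 and MGAT3, adding that of HMMR and changing no member call. The number of member probe pairs that differed was 0, and 0 to 1 when arrays were left out.

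The difference between the ST6GAL1 probes turned from 0.24 to -0.62 without background correction, -0.35 with an offset of 50 and -0.0089 without both HSF1 arrays. That between the PODXL probes turned from 0.52 to -0.0069 without H1 NSC and -0.36 without both H1 arrays, and the stage difference of FUT4 ILMN_1880256 from 0.40 to -0.0077 without both H1 arrays. None of these passed the threshold, and the cause was not tested. With arrays left out, these values ranged from -0.0089 to 0.42 (ST6GAL1 probes), -0.36 to 1.04 (PODXL probes) and -0.0077 to 0.85 (FUT4). Of the values for single probes and pairs under alternatives, 384 kept their direction and side of the threshold, 134 lost it, 1 gained it and 6 changed sign. Where both arrays of a line are left out, 2 against 2 remain. The stage difference in H1 against HSF had no fit with arrays left out.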

Other observations

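Several related genes, named after their values were seen, differed between lines in NSC. Signals are given for H1, HSF1 and HSF6 in that order. FUT9, which makes Lewis X in mouse brain, gave 116, 139 and 129 in ESC and 116, 305 and 201 in NSC, above background in NSC of the HSF lines alone, while its other probe was at background on all 6 arrays. ST8SIA2, the polysialyltransferase of the developing brain, gave 144, 132 and 156 in ESC and 137, 668 and 966 in NSC. PODXL2, endoglycan, a relative of podocalyxin, gave 134, 146 and 154 in ESC and 128, 207 and 216 in NSC. None of the 3 was above background on all arrays of a stage, so none was tested.

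CD34, a further relative of podocalyxin, gave 167, 164 and 147 in ESC and 4449, 176 and 238 in NSC (log2 difference 2.78, SE 1.40, adjusted p = 0.189), so that its signal in H1 NSC stood apart. The stage difference in H1 minus that in the HSF lines was 5.25 (adjusted p = 0.0621 in limma). In H1 NSC the 4 endothelial markers gave 142 (PECAM1, under the limit), 219 (CDH5), 143 (KDR, under the limit) and 483 (TEK), where TEK gave 212 and 222 in NSC of the HSF lines. Of these KDR fell from ESC to NSC, CDH5 was not tested, and the 6 mesenchymal markers had their highest sum there. The part of those cells was not tested. TNFAIP6, a hyaluronan binding protein, gave 722, 161 and 151 in ESC and 1508, 152 and 232 in NSC (log2 difference 0.83, SE 1.46, adjusted p = 0.702). A4GALT gave 426, 190.2 and 149 and 420.3, 114 and 131, with H1 highest in each stage.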
